A study of Mus musculus with 3 samples.

Results

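The 10 genes described here are the D-type cyclins *Ccnd1*, *Ccnd2* and *Ccnd3*, the cyclin-dependent kinases *Cdk2*, *Cdk4* and *Cdk6*, and the CDK inhibitors *Cdkn1a*, *Cdkn1b*, *Cdkn2c* and *Cdkn2d*. They were chosen by name as genes of entry into and arrest of the cell cycle, out of the 27998 genes counted, and all 10 were in the matrices. CD133+ bone marrow cells of C57BL/6 mice had been sorted by flow cytometry, and their RNA was counted in single cells with unique molecular identifiers (UMIs, one per captured transcript end). There was 1 library each of cells called control (3 months by label), young (3 months) and old (27 months by label, 18.5 months in the series' design text), with cells of 3 mice pooled in each, and no treatment or allele was named for any of them. What sets the control library apart from the young one is not stated in the labels. The paper describes a set of CD133+ cells used to define its clusters, and separately a comparison of young with old cells. By its number of cells, the control library is the set used to define the clusters. With 1 library per group there is no replicate and no test between libraries, and age, mice and library cannot be told apart. Intervals below are exact at 95% and cover counting error only.

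Cyclin D proteins bind CDK4 or CDK6, and the pair phosphorylates the retinoblastoma protein, which frees E2F factors and lets a cell pass from G1 into S phase, where CDK2 acts with cyclins E and A. The INK4 inhibitors, p18INK4c from *Cdkn2c* and p19INK4d from *Cdkn2d*, bind CDK4 and CDK6 and keep cyclin D away, while p21 from *Cdkn1a*, a target of p53, and p27 from *Cdkn1b* bind cyclin-CDK complexes, those of CDK2 above all. In the neutrophil lineage promyelocytes and myelocytes divide, and later forms have left the cycle for good. *Mpo*, a granule enzyme of promyelocytes, and *Retnlg* and *Mmp8*, genes of later forms, mark the ends of that path.

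The libraries held 10869 control, 8362 young and 10597 old cells, with medians of 9560, 9719.5 and 13039 UMIs per cell. After limits on UMIs and mitochondrial share, 9820, 7456 and 9562 cells were kept, and 90, 783 and 86 of these sat in clusters of other blood cells and were set aside (0.916%, 10.5% and 0.899%). The remaining cells carried neutrophil precursor genes (a 7-gene list led by *Camp* and *Ngp*) at 134767, 150519 and 129133 CPM (UMIs of the genes in 1000000 UMIs) in control, young and old. Endothelial genes were at or near 0 in them, with *Cdh5* at 0.0105, 0.0733 and 0 CPM and *Tek* at 0 in all 3 libraries, and the 5-gene endothelial list summed to 1.58, 1.32 and 2.95 CPM, most of it *Pecam1* (1.37, 1.21 and 2.92 CPM), so the cells are named here by their neutrophil genes. *Prom1*, which encodes CD133, was at 52.7, 42.6 and 40.6 CPM. Of the cell barcodes, 125 were shared by control and young, 161 by control and old and 120 by young and old.

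These cells were placed in 5 bands by their UMIs per 10000. Band A had *Mpo* of at least 50, band B from 10 to under 50, and bands C, D and E had *Mpo* under 10 with *Retnlg* plus *Mmp8* under 3, from 3 to under 15, and at least 15. Bands A to E held 1184, 1140, 4650, 2055 and 355 control cells, 519, 262, 1136, 3099 and 519 young cells and 293, 338, 617, 4730 and 1976 old cells. Cells high in both measures, 346 control, 1138 young and 1522 old, were in no band. In cells with *Mpo* of at least 50 the median of *Retnlg* plus *Mmp8* was 1.248 per 10000 in control and 3.33 and 3.56 in young and old, so the limit of 3 lay within the background of the young and old libraries. Of these cells 8.57%, 57.2% and 64.0% in control, young and old were at 3 or more, and so in the mixed class and not in band A. The G2/M list of 40 genes summed to 20.996, 26.9 and 25.2 UMIs per 10000 in band A of control, young and old. It summed to 40.7, 42.0 and 43.0 in band C and to 17.0, 18.2 and 15.3 in band E. The list was thus higher in band C than in either end band. Of the control, young and old band E cells, 84.2%, 81.3% and 83.5% were in its bottom tercile over all banded cells. Of the band A cells, 42.99%, 32.2% and 25.9% were.

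*Cdk4* and *Ccnd3* encode partners in 1 complex. From band A to band B *Cdk4* fell and *Ccnd3* rose in CPM in each library, while past band C both fell in control. The bases before their transcript starts are shown so that both can be read side by side, from RefSeq on GRCm38.p6, 5′ to 3′, plus strand, with the GC box GGGGCGGGG (read on either strand) in capitals.
*Cdk4*, chr10:127063285-127063534: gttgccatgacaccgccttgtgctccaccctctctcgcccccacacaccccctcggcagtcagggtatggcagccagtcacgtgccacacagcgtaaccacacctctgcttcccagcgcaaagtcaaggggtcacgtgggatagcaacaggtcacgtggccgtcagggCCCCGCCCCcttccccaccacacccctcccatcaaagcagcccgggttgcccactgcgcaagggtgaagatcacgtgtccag
*Ccnd3*, chr17:47504801-47505050: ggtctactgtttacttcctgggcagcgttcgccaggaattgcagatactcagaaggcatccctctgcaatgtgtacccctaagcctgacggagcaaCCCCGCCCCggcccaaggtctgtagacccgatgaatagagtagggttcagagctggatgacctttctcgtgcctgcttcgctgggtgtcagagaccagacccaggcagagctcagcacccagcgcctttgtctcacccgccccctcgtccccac
A GC box began 82 bases before the start of *Cdk4* and 154 bases before the start of *Ccnd3* shown here. Another *Ccnd3* window, not shown, held one 48 bases before its start. Of 32851 promoter windows of the same length, 10.4% hold one. RefSeq promoters were found for 8 of the 10 genes (11 windows, as some genes have more than 1, and *Ccnd1* and *Ccnd2* were not analysed here). Of the 8, 4 held the GC box in a window, a count by gene where the share above is by window. None of the 8 held the CHR motif TTTGAA, the E2F motif TTTGGCGC or TTTCGCGC, or the C/EBP motif TTGCNNAA, which occur in 16.0%, 0.654% and 9.56% of all windows, both strands searched. No match says only that these letters are not in these windows. Of the 10 genes, 7 overlap a gene on the opposite strand in GENCODE on GRCm38 (*Cdk4* overlaps *Tspan31*, *Ccnd3* overlaps *Bysl* and *Cdk2* overlaps *Pmel*), and whether the counting used strand is not given in the sources used here.

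Of the D cyclins, *Ccnd2* was highest in the *Mpo*-high band A, *Ccnd3* was lowest there in CPM, and *Ccnd1* gave few UMIs in any band. From band A to band E *Ccnd2* was at 91.9, 20.8, 2.77, 2.90 and 4.72 CPM in control, at 78.2, 11.5, 3.60, 3.82 and 8.10 CPM in young and at 31.2, 5.06, 1.002, 0.682 and 0.765 CPM in old cells. Its level was lower in band E than in band A in each library, by 4.28 (interval 3.40 to 5.35), 3.27 (2.70 to 3.90) and 5.35 (4.52 to 6.30) on the log2 scale. The mean log2 ratio of band C to band A (-4.82 ± 0.33, SD, n = 3 libraries) was already past that of E to A (-4.30 ± 1.04), and the 3 libraries differed by less in it. Band E was above band D in each library (0.65 ± 0.46), on 10, 26 and 13 UMIs in band E of control, young and old. The interval lay above 0 in young only (1.08, 0.41 to 1.71). *Ccnd3*, on chromosome 17 (47505051 to 47599691, plus strand, GRCm38), was instead lowest in band A in CPM. It was at 245, 471, 560, 540 and 487 CPM in control, at 245, 434, 454, 465 and 470 CPM in young and at 307, 518, 531, 529 and 522 CPM in old cells from band A to E. Its ratio of band E to band A was 0.90 ± 0.12 on the log2 scale (SD, n = 3 libraries), and nearly all of it was reached by band B. In UMIs per 100 cells *Ccnd3* was at 314, 300 and 440 in band A of control, young and old. Band E held 291, 291 and 449, so per cell these bands differed by little. *Ccnd1* gave 14, 28 and 15 UMIs over all banded cells, or 0.148, 0.513 and 0.159 CPM, with no band above 0.714 CPM. In band E it had no UMI in control or young, which allows up to 1.74 and 1.15 CPM, so no order among bands can be read from it. As the 3′ counts carry 1 UMI per captured end whatever the transcript length, levels were compared between genes without dividing by length. *Ccnd3* made up 72.7%, 75.6% and 90.6% of all D cyclin UMIs in band A and 99.5%, 99.1% and 99.8% in band C of control, young and old.

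**Figure D1:**
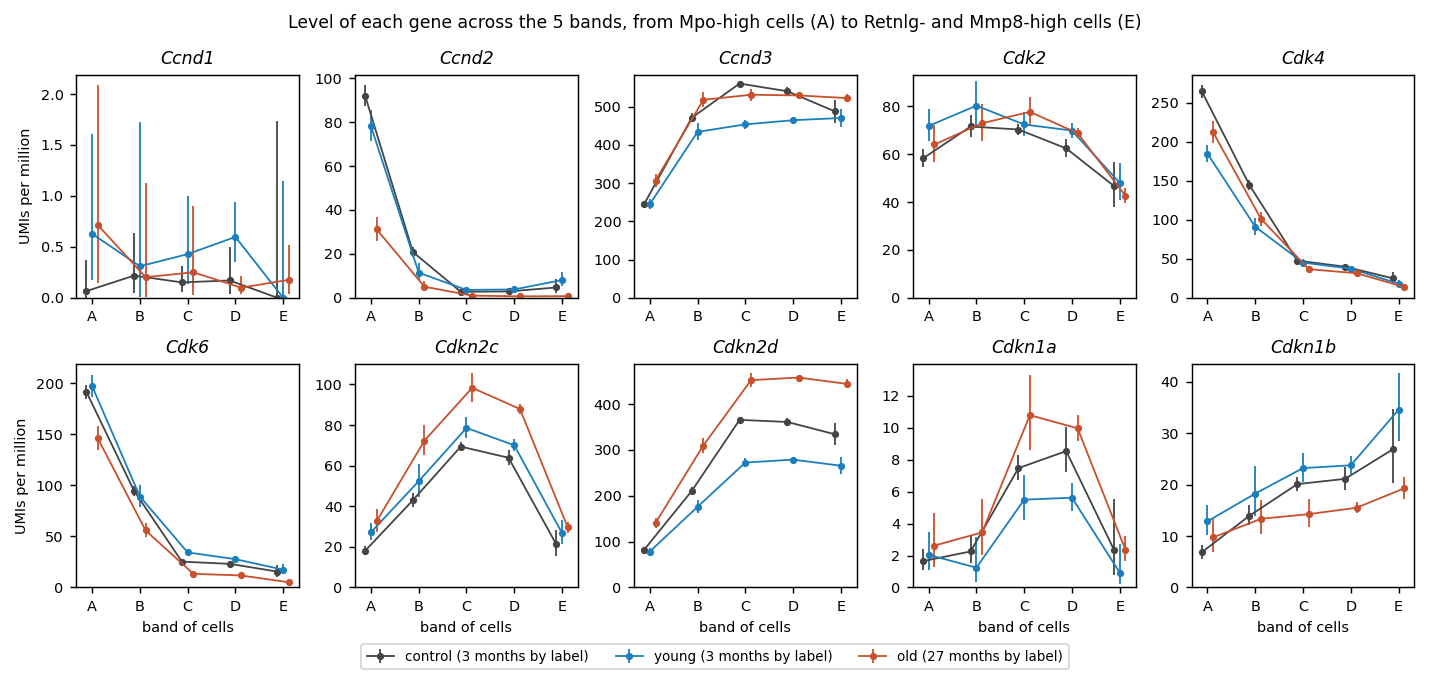
CPM of each of the 10 genes (vertical axes, each from 0) in bands A to E (horizontal axes) for the control, young and old libraries; points are sums over cells and bars are exact 95% Poisson intervals. *Ccnd2*, *Cdk4* and *Cdk6* are highest in band A, *Ccnd3* and *Cdkn2d* stay high from band C on, and *Cdkn2c* and *Cdkn1a* are highest in bands C and D, while *Ccnd1* has between 0 and 18 UMIs in a band.

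Both kinases that cyclin D binds were highest in band A. *Cdk4* was at 265, 144, 47.7, 39.9 and 25.0 CPM in control, at 185, 91.1, 45.1, 37.4 and 18.1 CPM in young and at 212, 101, 36.7, 31.5 and 13.9 CPM in old cells from band A to E. *Cdk6* was at 192, 94.6, 25.4, 23.2 and 15.6 CPM in control, at 197, 89.2, 34.4, 27.8 and 17.5 CPM in young and at 146, 55.9, 13.4, 11.8 and 5.12 CPM in old cells. Each step from band to band was downward in each library for both genes. Bands A, B and C did not overlap over the 3 libraries, while the step from C to D lay within counting error for *Cdk6* in control and old. Band A exceeded band E by 11.8-fold for *Cdk4* and by 15.8-fold for *Cdk6* (mean of 3 libraries; log2 ratio of E to A -3.56 ± 0.32 and -3.99 ± 0.74, SD, n = 3). *Cdk2* behaved differently. It stayed between 58.2 and 80.2 CPM in bands A to D of all 3 libraries and was at 46.7, 48.0 and 42.7 CPM in band E, a log2 ratio of E to A of -0.49 ± 0.15 (SD, n = 3) that was under 1.5 times in control and young and at that limit in old.

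The INK4 inhibitors were low in band A and several times higher in band C. *Cdkn2d* was at 82.0, 211, 366, 361 and 334 CPM in control, at 78.4, 176, 272, 279 and 266 CPM in young and at 141, 309, 452, 458 and 444 CPM in old cells from band A to E. Its level in band E was 4.07, 3.39 and 3.16 times that in band A, and bands C and D differed by little (log2 ratio 0.01 ± 0.03, SD, n = 3). *Cdkn2c* was highest in the middle of the path, at 18.1, 43.0, 69.4, 63.9 and 21.2 CPM in control, at 27.2, 52.3, 78.6, 70.0 and 26.8 CPM in young and at 32.6, 72.3, 98.3, 87.9 and 29.6 CPM in old cells. Band C was above band A by 3.83, 2.89 and 3.01 times, and band E was below band D by 3.01, 2.61 and 2.97 times, so that bands A and E did not differ beyond their intervals in any library (log2 ratio 0.02 ± 0.19, SD, n = 3). The other INK4 genes were barely found, with 5, 5 and 6 UMIs of *Cdkn2a*, which encodes p16, and 0, 3 and 3 UMIs of *Cdkn2b* over all banded control, young and old cells. At this depth 0 UMIs of *Cdkn2b* in control allow up to 0.0389 CPM.

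Of the CIP/KIP inhibitors, *Cdkn1b* was highest in band E in CPM and *Cdkn1a* in bands C and D. *Cdkn1b* was at 6.85, 14.0, 20.1, 21.1 and 26.9 CPM in control, at 12.9, 18.3, 23.2, 23.8 and 34.6 CPM in young and at 9.76, 13.4, 14.3, 15.5 and 19.3 CPM in old cells from band A to E. This order ran upward at each step in each library, but most single steps lay within counting error, among them that from C to D in all 3 libraries. In UMIs per 100 cells band E was below band D, at 16.1 against 18.1 in control, 21.4 against 23.1 in young and 16.6 against 19.7 in old. Band E was 3.93, 2.69 and 1.98 times band A (log2 ratio 1.46 ± 0.50, SD, n = 3 libraries). *Cdkn1a* rested on few UMIs, 556 in control, 253 in young and 752 in old cells. It was at 1.65, 2.26, 7.46, 8.53 and 2.36 CPM in control, at 2.04, 1.24, 5.49, 5.61 and 0.935 CPM in young and at 2.62, 3.44, 10.8, 9.95 and 2.35 CPM in old cells. Band C was above band A by 1.88 ± 0.40 and band E below band D by 2.17 ± 0.38 on the log2 scale (SD, n = 3 libraries), and bands A and E could not be told apart at this depth. The third gene of this family, *Cdkn1c*, which encodes p57, gave 36, 20 and 74 UMIs over all banded control, young and old cells.

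Counted by a limit of 1.5 times in the same direction in all 3 libraries, with at least 10 CPM in either band, 8 of the 10 genes could be compared between bands E and A. *Cdkn1b*, *Cdkn2d* and *Ccnd3* were higher in band E (3 of 8, where 10.4% of 5803 genes were higher), and *Ccnd2*, *Cdk4* and *Cdk6* were lower (3 of 8, where 55.8% of all genes were lower). The count of lower genes was thus no larger a share than that of all genes. In CPM the median gene was lower in band E by a log2 ratio of -0.99, and band E cells held fewer UMIs (medians of 4966, 4886 and 8245.5 in control, young and old against 13340.5, 12512 and 14778 in band A). Relative to that median, log2 ratios were 2.81 for *Cdkn2d*, 2.45 for *Cdkn1b*, 1.89 for *Ccnd3*, -2.57 for *Cdk4*, -2.99 for *Cdk6* and -3.31 for *Ccnd2*. In UMIs per cell, where the median of all genes moved by a further -0.94, *Cdkn2d* and *Cdkn1b* were still higher in band E (log2 ratios 0.87 and 0.52) and *Ccnd3* was not (-0.04). Outside the 50 most abundant genes, where the median moved up by 0.76, *Cdk2* changed sign (0.27), as did *Cdkn1a*, which had under 10 CPM in both bands (from -0.25 to 0.51). With an exact sign permutation over 3 libraries no p below 0.25 can be had, so none of these counts is a test.

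Summed by role, the ratio of inhibitor RNA to *Cdk4* and *Cdk6* RNA differed between band A and bands C to E by more than between libraries. *Cdk2*, which changed less along the bands, was not in this sum, and protein was not measured. The 4 inhibitors together gave 0.238, 0.315 and 0.519 UMIs per UMI of *Cdk4* and *Cdk6* in band A of control, young and old, 6.33, 4.78 and 11.5 in band C and 9.48, 9.23 and 26.0 in band E. *Cdkn2d* made up 65.1% to 89.7% of the inhibitor UMIs over the 15 band and library pools. Old was the highest of the 3 libraries in each band for this ratio. In band D the ratio was 7.20, 5.80 and 13.2 in control, young and old, so bands C and D differed by less than the libraries did. Band C of old (11.5) was above band E of control (9.48) and of young (9.23).

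The other genes of the pathway were taken from fixed lists. Of 25 tested of 40 other cyclin, CDK, RB and E2F genes, 19 were lower in band E than in band A in all 3 libraries and 1 was higher. Those named by size of change were *Tfdp2*, a partner of E2F factors, at 14.2, 20.6 and 15.2 CPM in band A and 0.472, 0.935 and 1.001 CPM in band E, *Myc*, a growth factor-induced regulator, at 66.6, 43.2 and 34.0 CPM against 5.19, 2.80 and 1.65 CPM, and *Skp2*, which targets p27 for degradation, at 17.8, 14.0 and 14.997 CPM against 2.83, 2.80 and 1.59 CPM. Of 13 tested of 27 p53 pathway genes, 4 were higher and 6 lower in band E. Among them *Trp53inp1* was at 11.3, 22.1 and 11.7 CPM in band E and 0.856, 2.51 and 2.38 CPM in band A, whereas *Aen*, a nuclease, was at 4.72, 1.247 and 2.24 CPM in band E and 45.0, 22.5 and 36.2 CPM in band A. Of the 21 secreted and nuclear genes linked with senescence 5 could be tested, of which 1 was higher, *Plaur*, the urokinase receptor, at 314, 392 and 279 CPM in band E against 51.4, 53.7 and 43.1 CPM in band A, and 2 were lower. The S phase list was lower in 41 of 41 tested genes and the G2/M list in 14 of 33. Of all genes tested, 55.8% were lower and 10.4% higher, so the p53 pathway and G2/M lists had a smaller share of lower genes than all genes had.

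The cells of each band were further divided by the terciles of the G2/M list, set over all banded cells of the 3 libraries, and, separately, of an S phase list of 42 genes, neither of which holds any of the 10 genes. The INK4 inhibitors were highest in cells rich in G2/M genes. In band D *Cdkn2c* was at 18.8, 63.5 and 97.9 CPM in the bottom, middle and top tercile of control, at 22.4, 56.7 and 98.2 CPM in young and at 23.3, 67.6 and 130 CPM in old cells. *Cdkn2d* was at 205, 262 and 554 CPM in control, at 133, 207 and 383 CPM in young and at 277, 321 and 632 CPM in old cells. The terciles did not overlap in any library, and the top exceeded the bottom by 2.33 ± 0.18 for *Cdkn2c* and 1.38 ± 0.17 for *Cdkn2d* on the log2 scale (SD, n = 3 libraries). The same held in band C, by 1.79 ± 0.22 and 1.49 ± 0.21, and in band A, by 1.07 ± 0.22 and 1.52 ± 0.17, though there the interval of the old library took in no difference for *Cdkn2c* (-0.20 to 1.76). The top tercile held few band A cells, 3.04% of 1184 in control, 13.9% of 519 in young and 8.53% of 293 in old.

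*Cdkn1a*, in contrast, was highest in cells rich in S phase genes. In band D it was at 3.07, 8.27 and 17.2 CPM from the bottom to the top tercile of the S phase list in control (20, 56 and 74 UMIs), at 1.40, 4.59 and 10.5 CPM in young (11, 59 and 99 UMIs) and at 1.89, 5.97 and 21.3 CPM in old cells (32, 138 and 428 UMIs). The top tercile exceeded the bottom by log2 ratios of 2.49 (1.76 to 3.28), 2.91 (2.004 to 3.95) and 3.49 (2.97 to 4.06), and no interval of the levels overlapped between top and bottom. In band C the top tercile was at 13.01, 10.3 and 17.0 CPM and the middle tercile at 6.11, 3.87 and 8.52 CPM. By terciles of the G2/M list the order of *Cdkn1a* differed between libraries. In band D the old library was highest in the middle tercile, at 15.03 CPM (top over middle -0.98, -1.24 to -0.72), and the control library in the top tercile, at 11.03 CPM, with an interval that takes in no difference (0.41, -0.14 to 0.97). In band E the bottom tercile of the G2/M list held 0, 1 and 10 *Cdkn1a* UMIs in 299 control, 422 young and 1650 old cells.

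**Figure D2:**
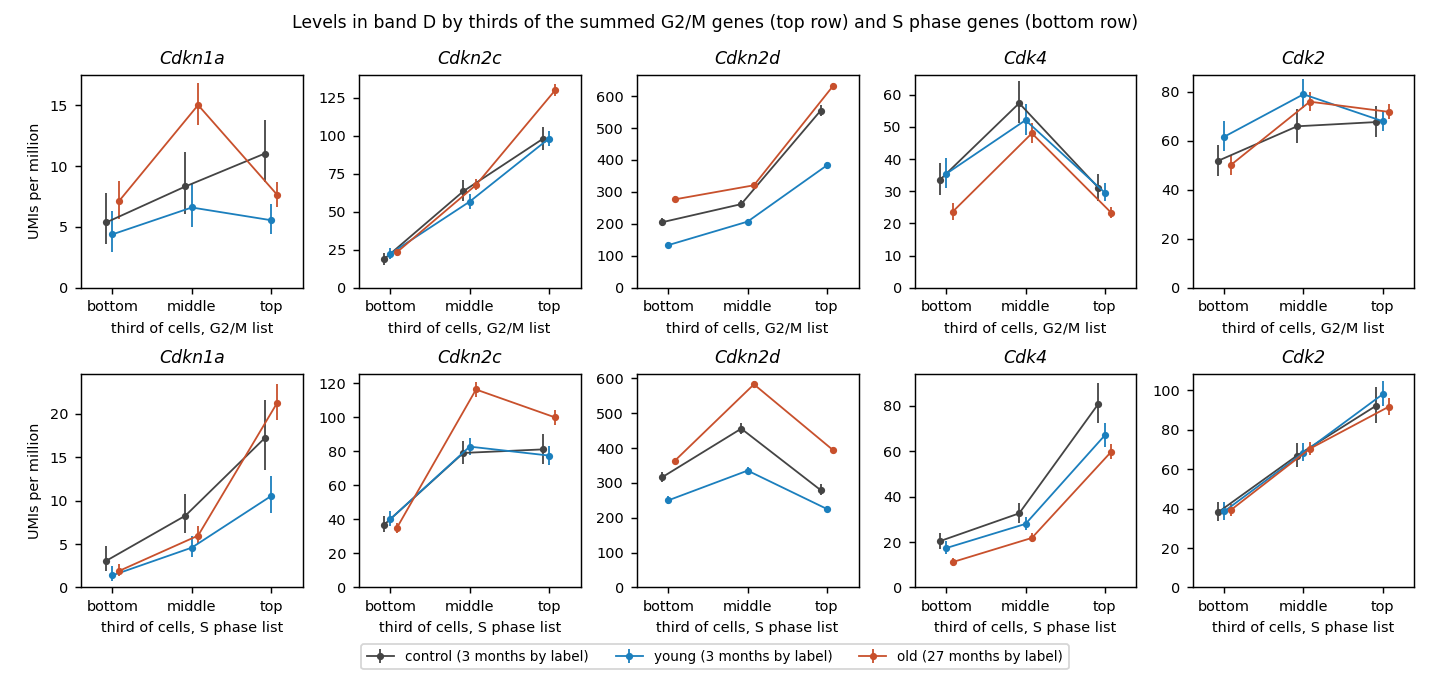
CPM of 5 of the genes (vertical axes, each from 0) in band D cells of the control, young and old libraries, by terciles of the summed G2/M genes (top row) and S phase genes (bottom row); bars are exact 95% Poisson intervals. *Cdkn2c* and *Cdkn2d* are highest in the top G2/M tercile and *Cdkn1a*, *Cdk4* and *Cdk2* in the top S phase tercile of all 3 libraries.

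*Cdk4* and *Cdk2* were also highest in cells rich in S phase genes. Such a difference was common, as over pooled bands 35.9% of genes were past 1.5 times higher in the top S phase tercile. In band D *Cdk4* was at 20.4, 32.6 and 80.8 CPM from the bottom to the top S phase tercile in control, at 17.4, 28.0 and 66.9 CPM in young and at 11.2, 21.8 and 59.7 CPM in old cells, and *Cdk2* was at 38.0, 66.9 and 92.2, at 38.6, 68.3 and 98.0 and at 39.2, 70.3 and 91.7 CPM. The 3 libraries gave almost the same *Cdk2* level in each tercile, although their cells differed in depth. The log2 ratio of top to bottom was 2.12 ± 0.26 for *Cdk4* and 1.28 ± 0.06 for *Cdk2* (SD, n = 3 libraries). *Cdkn2d* was highest in the middle S phase tercile of band D, and its top tercile was below the middle by 0.61 ± 0.08 in log2 ratio. *Ccnd3* and *Cdkn1b* differed by less than 1.5 times between S phase terciles of band D on average (log2 ratios of top to bottom 0.12 and 0.19).

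Over all 5 bands pooled, 7 of the 10 genes had at least 10 CPM in either tercile of each library. *Cdkn2c* and *Cdkn2d* were past 1.5 times higher in the top G2/M tercile of all 3 libraries (2 of 7, where 7.41% of 4788 genes were) and none was lower (1.57% of all genes). Without the old library, in which *Ccnd2* had under 10 CPM and *Cdk4* differed by 0.05 in log2 ratio, 2 genes were lower. The share of all genes lower in that setting is not given here. *Cdk2*, *Cdk4* and *Cdk6* were higher in the top S phase tercile (3 of 7, where 35.9% of 5049 genes were) and none was lower (5.01% of all genes). The 3 of 7 were thus near the share of all genes. These pooled terciles differ in their mix of bands, which the values within bands do not. Of the other lists, 13 of 25 tested cyclin, CDK, RB and E2F genes were higher in the top G2/M tercile and 1 lower, and 14 were higher in the top S phase tercile and 1 lower. The largest differences by G2/M tercile were in *Cdc25c* (16.2, 16.2 and 25.1 CPM in the top against 2.08, 2.105 and 1.71 in the bottom tercile), the mitotic cyclin *Ccnb1* (179, 184 and 252 against 24.6, 19.99 and 27.7), *Ccna2*, *Cdkn3*, *Cdk1* and *Cdc25b*. By S phase tercile the cyclin E genes *Ccne2* (138, 151 and 129 against 6.93, 5.08 and 5.62 CPM) and *Ccne1* (33.2, 39.2 and 45.7 against 2.95, 2.98 and 4.40) led, with *Skp2*, *Mybl2* and *E2f1* next, and *Cdc25b* was the lower one. None of 10 tested p53 pathway genes passed the limit for the G2/M list, and 3 were higher and 2 lower for the S phase list.

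In cells poor in G2/M genes, *Cdkn1b* and *Cdkn2d* were higher in the last band than in the one before. Among bottom-tercile cells *Cdkn1b* was at 13.04, 18.0 and 12.7 CPM in band D of control, young and old and at 23.7, 33.4 and 19.8 CPM in band E. *Cdkn2d* was at 205, 133 and 277 CPM in band D and at 310, 247 and 424 CPM in band E. Both were higher in band E in 3 of 3 libraries, by 1.82, 1.85 and 1.57 times for *Cdkn1b* and by 1.51, 1.85 and 1.53 times for *Cdkn2d*, and none of the 6 log2 intervals reached 0 (the lowest bound was 0.24). These are ratios of CPM, and the median of all genes was not taken for them. Over all terciles, band E cells held fewer UMIs (medians of 4966, 4886 and 8245.5 in control, young and old) than band D cells (8101, 9585 and 12886). *Cdk4*, *Cdk6*, *Cdkn2c* and *Cdk2* were lower in 3 of 3 libraries, by mean log2 ratios of -0.97 ± 0.31, -0.84 ± 0.19, -0.90 ± 0.56 and -0.42 ± 0.17 (SD, n = 3). The intervals of *Cdk6* and *Cdk2* in control took in 0, and *Ccnd3* differed by 0.10 ± 0.09. *Cdkn1a* went against the other CIP/KIP inhibitor, at 0.445 CPM in band E against 4.39 CPM in band D of young (1 and 28 UMIs, log2 ratio -3.30, -8.66 to -0.71) and at 0.735 against 7.11 CPM in old (10 and 87 UMIs, -3.27, -4.38 to -2.33), and control held 0 UMIs in band E and 28 in band D.

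Between libraries, the comparison of old with young cells asks what differs with age. The control library, of the same labelled age as the young one but described separately in the paper, is given beside them. Over bands A to E *Cdkn2d* was at 296, 247 and 433 CPM in control, young and old. Old was above young by 1.75 times (log2 0.81, 0.78 to 0.84) and above control by 1.46 times (0.55, 0.53 to 0.57), and control was above young by 1.198 times (0.26, 0.23 to 0.29). In the single bands old exceeded young by 1.64 to 1.79 times and control by 1.24 to 1.72 times, so old was the highest library in 5 of 5 bands. The libraries were not alike within a band. Mean *Mpo* in band A was 85.5, 99.3 and 77.1 UMIs per 10000 in control, young and old. Mean *Retnlg* plus *Mmp8* in band D was 4.91, 5.52 and 6.73. The part of this in ratios within bands, for all the genes, was not tested. *Cdkn2c*, at 55.3, 63.3 and 75.0 CPM, was also highest in old in all 5 bands, by 0.14 to 0.47 over young (the intervals of bands A and E took in no difference) and 0.46 to 0.85 over control in log2 ratio. *Cdkn1a*, at 5.86, 4.64 and 7.98 CPM, was above young in all 5 bands of the old library and above control in 4 of 5. The interval of the ratio to young lay above 0 in bands C and D only (0.97, 0.49 to 1.46, and 0.83, 0.58 to 1.08), where bands A, B and E of young held 13, 4 and 3 UMIs.

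*Ccnd2* and *Cdk6* were lowest in the old library. *Ccnd2* was at 19.7, 13.2 and 2.31 CPM and *Cdk6* at 61.4, 52.0 and 19.0 CPM in control, young and old over bands A to E, and both were lower in old than in either other library in 5 of 5 bands. The pooled ratios of old to young were -2.51 and -1.45 on the log2 scale and those of old to control -3.09 and -1.69. These pooled values leave out the mixed class, to which 64.0% of the 813 old cells with *Mpo* of at least 50 belonged (57.2% of 1213 in young and 8.57% of 1295 in control). In old, the cells of that class held more UMIs of *Ccnd2* (281 against 218) and *Cdk6* (1867 against 1793) than the bands did. With those cells included, a setting chosen after seeing the data, the ratios of old to young were -2.23 for *Ccnd2* and -1.22 for *Cdk6*, and those of old to control -2.25 and -1.02. With the 5 bands weighted equally the ratios were -1.44 and -0.66 to young and -1.67 and -0.59 to control. In band A alone, *Ccnd2* was lower in old by 1.33 than in young and by 1.56 than in control, while *Cdk6* was lower by 0.43 and 0.39. *Cdk4*, at 94.5, 58.3 and 40.5 CPM, changed direction with the weight given to each band. Its pooled ratio of old to young of -0.53 became 0.07 with equal weights, and within bands it ran from -0.38 to 0.20. *Cdkn1b*, at 17.4, 22.7 and 15.7 CPM, was lower in old than in young in 5 of 5 bands, by 0.40 to 0.84 in log2 ratio (the intervals of bands A and B took in no difference), and *Ccnd3* and *Cdk2* stayed within 1.5 times in each band and pair of libraries.

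**Figure D3:**
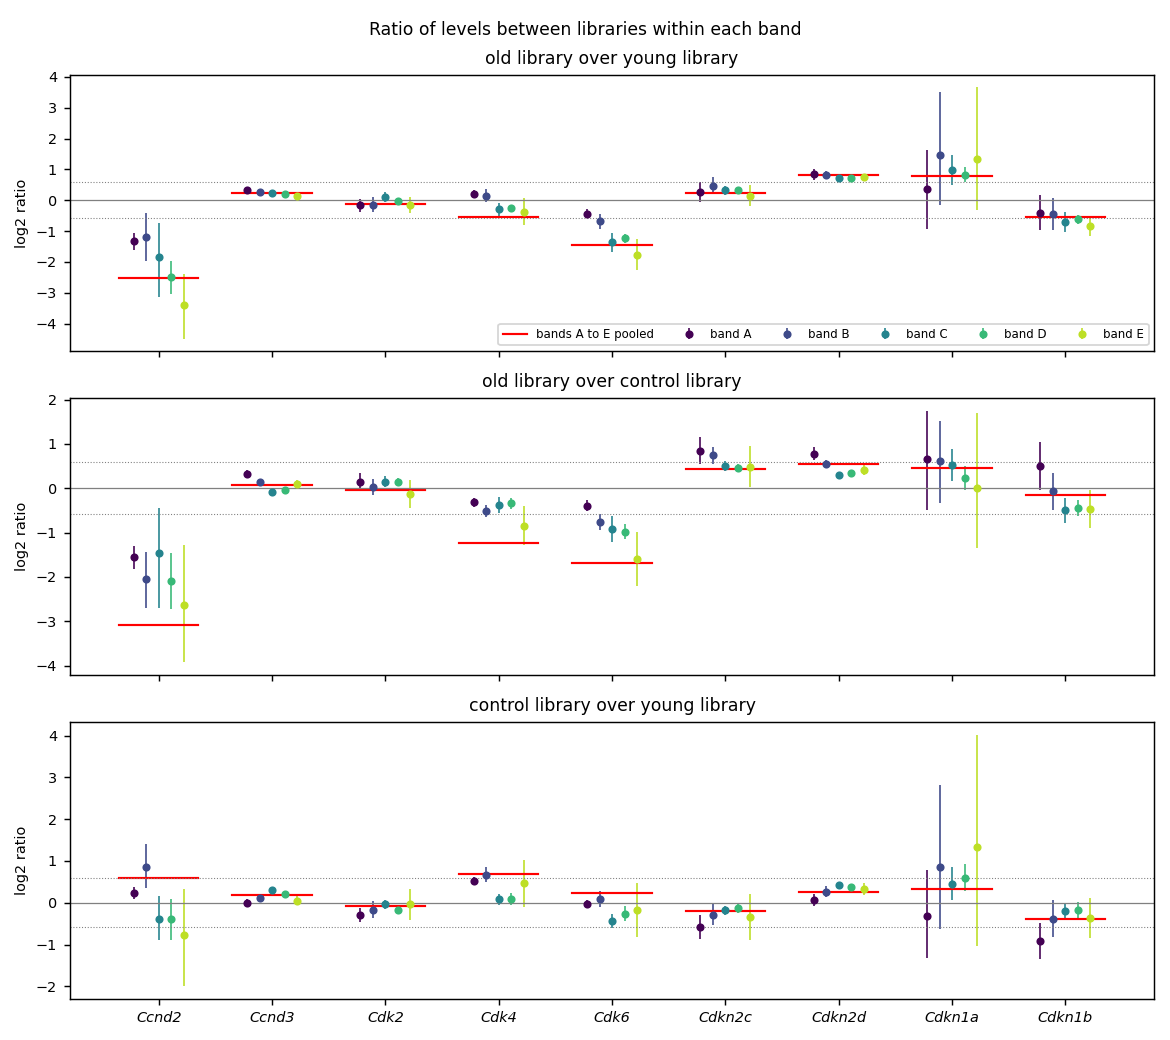
Log2 ratio of CPM between 2 libraries (vertical axes) for 9 of the genes (horizontal axis) within each band (points, with exact 95% intervals of counting error) and over bands A to E pooled (red lines); dotted lines mark 1.5 times. *Cdkn2d* is above 0 in each band for old over young and old over control, and *Ccnd2* and *Cdk6* are below 0 in each. The pooled line of *Cdk4* lies outside its band values in each pair of libraries. The same holds for *Ccnd2*, *Cdk6* and, by little, *Cdkn2c* in old over control, and for *Cdk6* in control over young.

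By the limit of 1.5 times over all banded cells, 8 genes were tested in each pair. In old over young, *Cdkn2d* was higher (1 of 8, 5.31% of 5405 genes) and *Ccnd2* and *Cdk6* were lower (2 of 8, 10.7% of all genes). In old over control none was higher (6.15% of 5428 genes) and *Ccnd2*, *Cdk4* and *Cdk6* were lower (3 of 8, 16.9% of all genes). In control over young *Cdk4* was higher (1 of 8, 6.59% of 5480 genes) and none was lower (3.41% of all genes). Both calls of *Cdk4* depended on the weight of each band. With the bands weighted equally, its log2 ratio of old to control went from -1.22 to -0.40. That of control to young went from 0.70 to 0.47, and both were then under 1.5 times. The median log2 ratio of the 8 was -0.32, -0.09 and 0.21 in the 3 pairs, and that of all genes tested -0.09, -0.17 and 0.07. In UMIs per cell the medians of all genes moved by 0.26, 0.23 and 0.04. Of the other lists, 1 of 26 tested cyclin, CDK, RB and E2F genes was higher in old than in young (*Cdc25b*, a phosphatase that activates CDKs, at 14.996 against 6.12 CPM) and 2 were lower (*Skp2* at 6.36 against 11.3 CPM and *Pkmyt1*, a kinase that inhibits CDK1, at 19.6 against 29.9 CPM). Of 10 p53 pathway genes *Gadd45a*, a stress-induced gene, was higher at 45.7 against 29.6 CPM and *Trp53* lower at 19.97 against 36.6 CPM. Of 4 senescence-linked genes only *Vegfa*, a secreted growth factor of vessels, passed the limit and was lower at 5.12 against 11.5 CPM. In old over control, 1 of 27 tested cyclin, CDK, RB and E2F genes was higher and 5 were lower. Of 11 p53 pathway genes 2 were higher and 2 lower, and of 4 senescence-linked genes 0 and 1. Of all genes, 6.15% were higher and 16.9% lower. Farthest from 0 were *Myc* (log2 ratio -2.32), *Aen* (-1.18), *Vegfa* (-1.07), *Cdc25b* (1.04), *Trp53* (-0.999) and *Skp2* (-0.84). In control over young, with 25, 11 and 4 genes of these lists tested, *Aen* (1.38), *Myc* (1.11), *Btg2* (-0.82) and *Bax* (0.60) passed the limit.

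Some lists of other blood cell genes, summed over bands A to E, had the order of *Ccnd2* in bands C to E, with young highest and old lowest. Among these were the B progenitor list (9.53, 26.1 and 3.19 CPM in control, young and old) and the dendritic cell list (12.9, 48.6 and 9.87 CPM). Others did not, as the monocyte list was lowest in control (7.42, 22.1 and 11.6 CPM). The NK and T cell list (634, 539 and 279 CPM) and the plasma cell list (7.21, 6.95 and 3.01 CPM) were highest in control. The NK and T cell list holds *Nkg7* and was not confined to other blood cells. Kept clusters with promyelocyte genes at 43961, 46158 and 41373 CPM held it at 2061, 2123 and 1717 CPM. It ran from 162 to 2130 CPM over the bands of control, 181 to 2260 in young and 98.2 to 1890 in old. The 8-gene B progenitor list summed to 6.08 to 21.7 CPM over the bands of control, to 22.8 to 39.1 CPM in young and to 2.002 to 18.1 CPM in old (1 of the 8 at 0), and the 7-gene dendritic cell list to 11.7 to 17.4, 44.5 to 55.5 and 6.65 to 19.3 CPM (2 of the 7 at 0 in old). The part of RNA from other blood cells in the differences between libraries was not tested. Without setting any cell aside, 4 of the tested genes passed the limit as lower in old than in young, against 2 of 8 above. The number tested under that setting and the share of all genes lower in it are not given here. The cause of the change in count was not tested.

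The cells set aside carried the cyclins in other proportions. *Ccnd1* was highest in dendritic cell-like cells, marked by *Siglech* and *Irf8*, where it was at 386 CPM in the young library (110 UMIs in 55 cells, interval 317 to 465) and 292 CPM in control (14 UMIs in 7 cells, 159 to 489), against 0.513 and 0.148 CPM in the bands. That cluster also held *Cdh5* at 96.1 CPM and *Pecam1* at 78.1 CPM over all libraries, and no cell of it was from the old library. Monocyte-like cells had *Ccnd1* at 10.7, 20.5 and 1.44 CPM in control, young and old. *Ccnd2* was at 311 CPM in the 61 young NK and T cell-like cells (266 to 362) and at 151 CPM in the 134 young B progenitor-like cells (130 to 174), above the 78.2 CPM of young band A. *Cdkn1a* was at 38.4 CPM in the 476 young monocyte-like cells and 38.7 CPM in young B progenitor-like cells, against 5.61 CPM in young band D, its highest band there. *Cdk6* was at 183 CPM in the 34 young basophil and mast cell-like cells (138 to 237), near the 197 CPM of band A. *Ccnd3* was at 316 to 615 CPM in all 6 kinds of young cells set aside. These cells also contained neutrophil RNA (*Camp* at 12744 CPM in the dendritic cell-like cluster against 46542 CPM in all other cells), whose part in their *Ccnd3* and *Cdkn2d* was not tested.

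**Figure D4:**
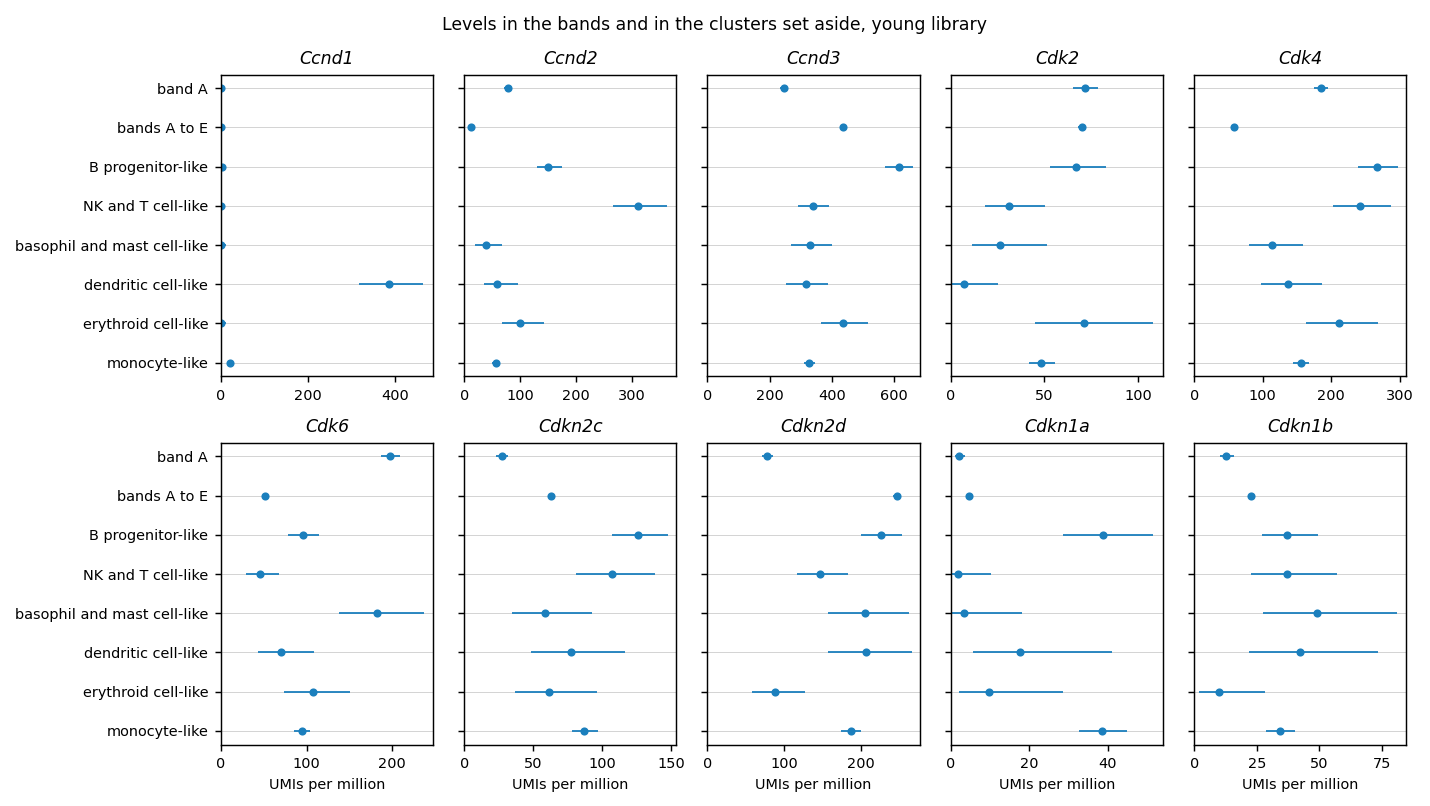
CPM (horizontal axes, each from 0) of the 10 genes in band A, in bands A to E and in the 6 kinds of cells set aside in the young library; bars are exact 95% Poisson intervals. *Ccnd1* stands out in dendritic cell-like cells at 386 CPM and *Ccnd2* in NK and T cell-like cells at 311 CPM.

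Over the 15 pools of 5 bands in 3 libraries, the gene whose level ran most like that of *Cdkn2c* was *Mxd3* (Pearson r 0.990 of log2 CPM plus 5 over 3593 genes compared), followed by *Nfyb* (0.984) and the phosphatase gene *Cdkn3* (0.982). For *Cdkn2d* they included *Cd177*, a neutrophil surface protein (0.975), and *Cib2* (0.974), and for *Ccnd3* they were *Fam101b* (0.975), *Pfn1* (0.964) and *Cdkn2d* itself (0.952). *Cdk4* ran most like *Eif5b*, *Exosc7* and *Ndufab1* (0.997, 0.997 and 0.996), *Cdk6* like *Bin1*, *Trp53* and *Mlec* (0.993, 0.992 and 0.991), and *Cdk2* like *Hist1h1b*, *Hvcn1* and *Kif20b* (0.974, 0.969 and 0.967). Pools of 1 library share its depth and mice, and the bands were set on 3 genes, so these are descriptions of 15 pools that are not independent. *Ccnd1*, *Ccnd2*, *Cdkn1a* and *Cdkn1b* averaged under 20 CPM and were not compared.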

How the data were processed

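Bone marrow CD133+ cells of 3 libraries (control, young, old) were analysed. The counts as deposited are UMIs per gene and cell of Chromium 3′ libraries, which the authors aligned with STAR and counted with Cell Ranger 2.1.0 per the submitters' processing notes. By the study's methods the authors then dropped genes seen in under 3 cells and limited cells by genes, UMIs and mitochondrial share, and the same limits on cells were used here. Libraries held 108985799, 81434722 and 138030352 UMIs.

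Cells with at least 200 genes, at most 20% mitochondrial UMIs and 3647 to 19253 UMIs were kept (5th to 95th percentile over the 3 libraries). They were clustered (scanpy 1.11.5, 2000 variable genes, 20 components, 15 neighbours, Leiden resolution 1), and a cluster was set aside as another blood cell type when at least 3 of that type's markers had at least 10 CPM and 10 times the level elsewhere. Scrublet called 2, 2 and 276 doublets, too few in control and young to have worked, and none was removed. UMIs were summed per library and band, with exact Poisson intervals for levels and exact conditional binomial intervals for ratios (scipy 1.17.1), and 3 libraries were summarised as mean ± SD. There was no test. The scripts were tested on simulated data with known folds. The 10 genes, lists and comparisons were chosen with earlier results of these data known. Besides the 10 genes, up to 6 listed genes per comparison, those with the largest fold past 1.5 times, are named. GENCODE held 27722 of the identifiers, and promoter windows came from RefSeq tables. Other settings tried, 19 in all, are given in the closing section. In the comparison of patterns across pools, 1 gene is not reported here.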

Additional observations from a re-analysis of the deposited data

How the results depend on the processing

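No paired analysis was possible because each group has 1 library and no result comes from a test. Over 19 settings, 551 of the values of single genes moved by less than 1 SD over the libraries or their counting interval, 228 moved by more, and 1 that was past 1.5 times turned direction, *Ccnd3* in band E over band A at -0.041 in UMIs per cell. Of the values not past 1.5 times, 41 changed sign, among them *Cdk2* (0.27) and *Cdkn1a* (0.51) in band E over band A outside the 50 most abundant genes and *Cdk4* in old over young with bands weighted equally (0.07). Counts of the 10 genes past 1.5 times stayed within 1.5 times of those reported in 166 cases and moved in 30. The share of all genes past the limit in each setting is not given here. The counts below thus cannot be set against all genes. Band E over A had 3 higher and 3 lower, and in UMIs per cell the median log2 ratio of all genes there was -1.94. The higher count was 1 with cells set aside one by one (a rule whose NK and T list holds *Nkg7*, so it took out many *Mpo*-high cells), 1 in UMIs per cell and 1 with a limit of 2 times, and the lower count was 5 in UMIs per cell. For the top G2/M tercile, 2 higher became 4 in UMIs per cell and 1 with a limit of 2 times, and 0 lower became 1 without a minimum of CPM and ran from 0 to 2 when 1 library was left out (2 without old). For the S phase list, 3 higher became 5 with cells set aside one by one and 5 without a minimum of CPM. In old over young, 2 lower became 4 with no cell set aside, 4 at the smaller limit of size and 1 in cells thinned to 3000 UMIs, and 1 higher became 0 with a limit of 2 times and 2 without a minimum of CPM. In old over control, 0 higher became 2 in UMIs per cell, 2 at the smaller limit and 1 outside the 50 most abundant genes. In control over young, 1 higher became 2 with no trimming by UMIs, with lower band limits, in UMIs per cell or at the smaller limit. It became 0 with no cell set aside, cells set aside one by one, higher band limits, a limit of 2 times, bands weighted equally, or no mixed class with *Retnlg* plus *Mmp8* limits of 10 and 50 (chosen after seeing the data), and 0 lower became 1 at the smaller limit and 1 without a minimum of CPM. The cause was not tested. Depth limits *Ccnd1*, *Cdkn1a* in bands A, B and E, and *Ccnd2* past band B, which rest on few UMIs.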
